A study of Mus musculus with 6 samples.

Results

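Of 65518 regions made by merging the ATAC-seq peaks of 3 mouse stem cell states, 50641 lay more than 1 kb from every protein-coding transcript start, and 13370 of these held a peak of D-EPSCs and of no other state. They are described here as distal D-EPSC-only regions. They were chosen by the presence of a peak in the D-EPSC list, by its absence from the ESC and L-EPSC lists, and by the distance of their midpoint from annotated starts. They made up 26.4% of the distal regions, 91.4% of the 14633 regions with a D-EPSC peak only, and 26.6% of the D-EPSC peaks. Each of them was exactly 1 D-EPSC peak, and together they covered 3.62 Mb of the 23.4 Mb of D-EPSC peaks.

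The 3 states were of the 129SV strain, and each was assayed in 2 technical replicates that the authors combined into a single peak list. J1 ESCs grew in serum with LIF and the 2i inhibitors CHIR99021 (of GSK3) and PD0325901 (of MEK). D-EPSCs, which were derived from ESCs by the Deng protocol, grew in N2B27 medium with KSR, LIF, CHIR99021, dimethindene maleate, which blocks histamine and muscarinic receptors, and the antibiotic minocycline. L-EPSCs, derived by the Liu protocol, grew in KSR medium with LIF, CHIR99021, PD0325901, the Src-family inhibitor A-419259, the tankyrase inhibitor XAV939, JNK inhibitor VIII and the p38 inhibitor SB203580. LIF and CHIR99021 were common to all states. The labels name a single ESC line, and no separate cultures are named within a state.

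The lists give the start and end of each peak and no height or read number, so a region has no value per replicate and the depth of the libraries is unknown. No difference between states could be tested against replicate spread. The 95% intervals given here cover counting error over regions or genes only. The absence of a peak does not show that a site was closed. The lists were of unequal length, and on chromosomes 1 to 19 and X the D-EPSC list was the longest with 50225 peaks, followed by L-EPSCs with 46601 and ESCs with 28965.

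Many transcription factors bind away from gene starts, at enhancers, which are short stretches where nucleosomes are displaced and the transposase of ATAC-seq can cut. Enhancers can act on genes over long distances, and the nearest gene need not be the one regulated. In pluripotent cells such sites are bound by Pou5f1, Sox2, Nanog, Esrrb and Klf factors, with signalling effectors such as Tcf7l1 and Smad proteins. Distal open sites also include CTCF sites, which help to fold chromatin into loops, and elements such as RE1 that recruit the neuronal repressor REST.

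Elements of transcription factors were searched in the regions as short consensus words without mismatch on both strands. The widest distal D-EPSC-only region with a match is shown for each of 6 factors, because these are the elements named in the study's motif comparisons of these cells. Each sequence is the plus strand of NCBIM37 (mm9), with up to 60 bases on either side of the match, and capitals mark the match. The Zfp281 element (CCCTCCCCC) was read on the minus strand at chr7:51566469-51566597 in an intron of Shank1, a scaffold protein of synapses. This region had its midpoint 1003 bp from a start, which made it the member closest to the distance limit. The RAR-RXR element, a direct repeat of a nuclear receptor word known as DR5, was on the minus strand at chr12:74549659-74549795, which is intergenic. The NRF1 element (GCGCATGCG) was at chr5:120886400-120886477 in an intron of Lhx5, a LIM homeobox factor of the developing brain. The left part of the REST element (TTCAGCACC) was on the plus strand at chr7:129779044-129779114, between genes and 36343 bp upstream of Cacng3. The Ronin/Staf element (ACTACAATT) was on the minus strand at chr10:40161891-40162019 in an intron of Cdk19, a Mediator kinase. The Six4 element (TGANACC) was on the minus strand at chr11:80948186-80948312 in an intron of Accn1, an acid-sensing ion channel.
Zfp281 element near Shank1: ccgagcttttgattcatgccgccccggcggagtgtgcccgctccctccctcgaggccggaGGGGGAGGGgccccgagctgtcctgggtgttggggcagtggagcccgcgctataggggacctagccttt
RAR-RXR DR5 element: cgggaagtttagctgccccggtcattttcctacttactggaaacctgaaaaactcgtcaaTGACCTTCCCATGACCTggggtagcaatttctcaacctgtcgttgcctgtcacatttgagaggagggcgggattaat
NRF1 element in Lhx5: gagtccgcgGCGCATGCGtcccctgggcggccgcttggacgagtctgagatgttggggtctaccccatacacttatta
REST left part near Cacng3: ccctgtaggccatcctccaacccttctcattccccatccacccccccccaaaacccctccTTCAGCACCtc
Ronin/Staf element in Cdk19: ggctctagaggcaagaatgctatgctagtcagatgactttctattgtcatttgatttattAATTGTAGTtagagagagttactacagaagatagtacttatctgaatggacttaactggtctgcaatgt
Six4 element in Accn1: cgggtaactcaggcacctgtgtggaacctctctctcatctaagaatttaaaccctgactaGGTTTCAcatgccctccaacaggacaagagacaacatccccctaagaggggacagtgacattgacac

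Zfp281 is a zinc-finger factor of the pluripotency network that acts in the exit from the naive state, and its gene was nearest to 10 distal D-EPSC-only regions. The member nearest to its start on the upstream side is shown whole because Zfp281 is among the factors the study named for these cells. It lay between genes at chr1:138494914-138495030, 26506 bp from the start. It is written on the plus strand of NCBIM37 (mm9), in lower case throughout.
Upstream of Zfp281: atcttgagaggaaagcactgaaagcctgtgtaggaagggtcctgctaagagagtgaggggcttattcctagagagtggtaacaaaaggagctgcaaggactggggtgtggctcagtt

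To ask which sequences distal D-EPSC-only regions carry, 23 elements were searched in windows of 400 bp centred on the regions. Most members were narrower than the window (median 218 bp), so a match can lie in sequence beside the region. Shares of members with an element are shares of these windows, unless whole regions are named. Sequence was not used to choose the members. Relative to distal regions with a peak in L-EPSCs only, Zfp281 elements, GC boxes, E-boxes and RFX words were more frequent and Esrrb and Klf elements less frequent, by intervals that excluded 0 under every alternative compared for the elements. Against these 9814 regions, 6 elements were more frequent, 6 were less frequent and the interval of the difference spanned 0 for 11. Against regions in both EPSC lists only 2 were more and 7 less frequent, against regions of all 3 lists 4 and 10, and against ESC-only regions 7 and 4. At least 1 of the 23 elements was present in 9710 members (72.6%), against 70.1% of the L-EPSC-only regions. The words are simplifications of the factors' binding preferences, and a match does not show binding.

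The Zfp281 element was present in the windows of 920 of the 13370 members, or 6.88% (95% Wilson interval 6.46 to 7.32). Its share was 4.10% in L-EPSC-only regions and 4.08% in ESC-only regions. Regions shared by both EPSC lists only had 6.60%, regions of all 3 lists 6.30%, and all distal regions 5.84%. The share in members was therefore above that of regions found in L-EPSCs only, by 2.78 percentage points (2.20 to 3.36), and of regions found in ESCs only, by 2.80 points (1.95 to 3.57). Against both EPSC lists only the difference was 0.28 points, with an interval of -0.38 to 0.93. When L-EPSC-only regions were weighted to the GC content of the members, a comparison chosen after the data had been seen, the difference was 2.33 points (1.75 to 2.91). This and the other GC-weighted intervals are the unweighted ones moved to the weighted difference, without the error that weighting adds. Over whole regions, without sequence beside them, the Zfp281 element was in 5.18% of members and 2.53% of L-EPSC-only regions.

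The GC box (GGGGCGGGG), bound by Sp factors, followed the same order against single-list regions but not against shared ones. It was found in 570 members (4.26%), in 2.17% of L-EPSC-only regions and in 1.68% of ESC-only regions. Shared regions had more, with 5.57% in both EPSC lists only and 5.91% in all 3 lists, and all distal regions had 4.18%. The members exceeded L-EPSC-only regions by 2.09 points (1.64 to 2.54) and were lower than regions of all 3 lists by 1.64 points (interval of the difference -2.20 to -1.09). The Zfp281 word and the GC box are both rich in guanine and can lie in the same stretch. Both were held by 65 members (0.486%), against 0.153% of L-EPSC-only regions and 0.864% of regions in both EPSC lists only.

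Elements of the naive pluripotency factors Esrrb and Klf were rare in the members. The Esrrb word (TCAAGGTCA), which Nr5a2 also binds, was present in 144 members (1.08%). The share was 2.46% in L-EPSC-only regions, 1.80% in both EPSC lists only, 1.93% in ESC-only regions and 1.83% in all 3 lists. The members were below each of these classes, with intervals of the difference that excluded 0, and the ratio to L-EPSC-only regions was 0.439. The Klf word (GGGTGTGGC) was in 226 members (1.69%), against 3.36% of L-EPSC-only regions, 3.08% of regions in both EPSC lists only and 2.23% of regions in all 3 lists. Against ESC-only regions, at 2.15%, the interval of the difference spanned 0 (-1.06 to 0.04).

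Words of Pou5f1 and Sox2, the core factors of pluripotency, had shares close to those of L-EPSC-only regions in windows of 400 bp. The octamer (ATGCAAAT) was in 2.98% of members and 2.84% of L-EPSC-only regions, a difference of 0.14 points (-0.30 to 0.57) that was 0.51 (0.07 to 0.94) after weighting to GC content. Regions of all 3 lists had 4.13%, more than the members by an interval that excluded 0. The Sox word (CCATTGTT) was in 2.09% of members and 2.17% of L-EPSC-only regions, and when each list was cut to its widest 28965 peaks, the length of the smallest, it was lower in members by an interval that excluded 0 (-0.67 points, -1.24 to -0.11). The TCF/LEF word (CTTTGAT), bound by Wnt effectors, was in 5.54% of members, 5.24% of L-EPSC-only regions and 8.97% of ESC-only regions.

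CTCF elements were in 400 members (2.99%), fewer than in 6.56% of regions in both EPSC lists only and 5.42% of regions in all 3 lists. L-EPSC-only regions had 3.91% and ESC-only regions 1.96%. With only the widest peaks kept, the difference from L-EPSC-only regions was -0.31 points (-0.97 to 0.34). Of the 401 CTCF matches in members, 208 (51.9%) were within 50 bp of the midpoint, against 49.2% in L-EPSC-only regions and 48.4% in both EPSC lists only. Matches of the Six4 word, at 24.6%, and of the TCF/LEF word, at 24.1%, were within 50 bp of the midpoint about as often as in L-EPSC-only regions, at 24.2% and 24.9%. Evenly placed matches would also fall in that zone in proportion to its width, 50 bp on either side in a window of 400 bp. The intervals here count matches, and a window can hold more than 1. Zfp281 matches were within 50 bp of the midpoint in 28.8% of members' matches (26.2 to 31.7), against 22.8% (19.1 to 27.0) in L-EPSC-only regions and 30.5% (27.3 to 34.0) in both EPSC lists only.

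The REST, Ronin/Staf, NRF1, Six4 and RAR-RXR elements were each present in distal D-EPSC-only regions, and in windows of 400 bp none had a higher share there than in L-EPSC-only regions by an interval that excluded 0. Either part of the REST element (TTCAGCACC or GGACAGCGC) was in 167 members (1.25%; 1.07 to 1.45), against 1.09% (0.903 to 1.32) of L-EPSC-only regions, and both parts were in 3. The Ronin/Staf word was in 11 members (0.0823%), against 0.102% of L-EPSC-only regions and 0.115% of all distal regions. The NRF1 word was in 29 members (0.217%), fewer than in L-EPSC-only regions (0.459%), in both EPSC lists only (0.453%) and in all 3 lists (0.564%). With only the widest peaks kept the NRF1 difference from L-EPSC-only regions was -0.11 points (-0.36 to 0.13). The Six4 word was common, in 19.2% of members and 18.8% of L-EPSC-only regions. Searched over whole regions instead, it was in 12.9% of members and 12.0% of L-EPSC-only regions, a difference of 0.95 points (0.09 to 1.80). The RAR-RXR DR5 repeat was in 47 members (0.352%), against 0.418% of L-EPSC-only regions and 0.340% of all distal regions.

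Among the remaining elements, Tfap2 sites (GCCNNNGGC) were in 14.9% of members and 12.1% of L-EPSC-only regions. That difference of 2.81 points was 0.39 (-0.50 to 1.27) after weighting to GC content. Shared regions had more Tfap2 sites than the members, with 16.1% in both EPSC lists only and 17.1% in all 3 lists. The E-box (CAGCTG), bound by basic helix-loop-helix factors, was in 28.4% of members, 24.8% of L-EPSC-only and 22.1% of ESC-only regions. Its difference from L-EPSC-only regions, 3.61 points, was 1.85 (0.71 to 3.00) after weighting to GC content and 1.74 (0.05 to 3.43) with only the widest peaks kept. RFX words (GTTGCCATG) were in 0.815% and 0.499% of members and L-EPSC-only regions, and Zic words (CCTGCTGGG) in 2.44% and 1.91%. Regions of all 3 lists had 2.86% with a Zic word, above the members by an interval that excluded 0. TEAD (CATTCCA) and YY1 (AAGATGGCG) words were less frequent in members, at 6.54% and 0.651%, than in L-EPSC-only regions, at 7.73% and 1.05%. Both differences had intervals spanning 0 with the widest peaks (-1.85 to 0.13 and -0.48 to 0.15 points), and that of YY1 also over whole regions (-0.36 to 0.01). Weighting to GC content instead enlarged the YY1 difference, from -0.40 to -0.73 points (-0.99 to -0.49). AP-1 words (TGANTCA), words of the Gata factors (AGATAAG) and words of the Ets factors (CCGGAAGTG) had intervals of the difference from L-EPSC-only regions that spanned 0, with 13.2%, 4.19% and 0.277% of members. After weighting to GC content the interval for Zic spanned 0 (0.31 points, -0.07 to 0.68). Those for TCF/LEF (0.75 points, 0.16 to 1.33) and the octamer (0.51 points, 0.07 to 0.94) then excluded 0. These intervals leave out the error of the weighting, so a limit close to 0 is uncertain.

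**Figure D1:**
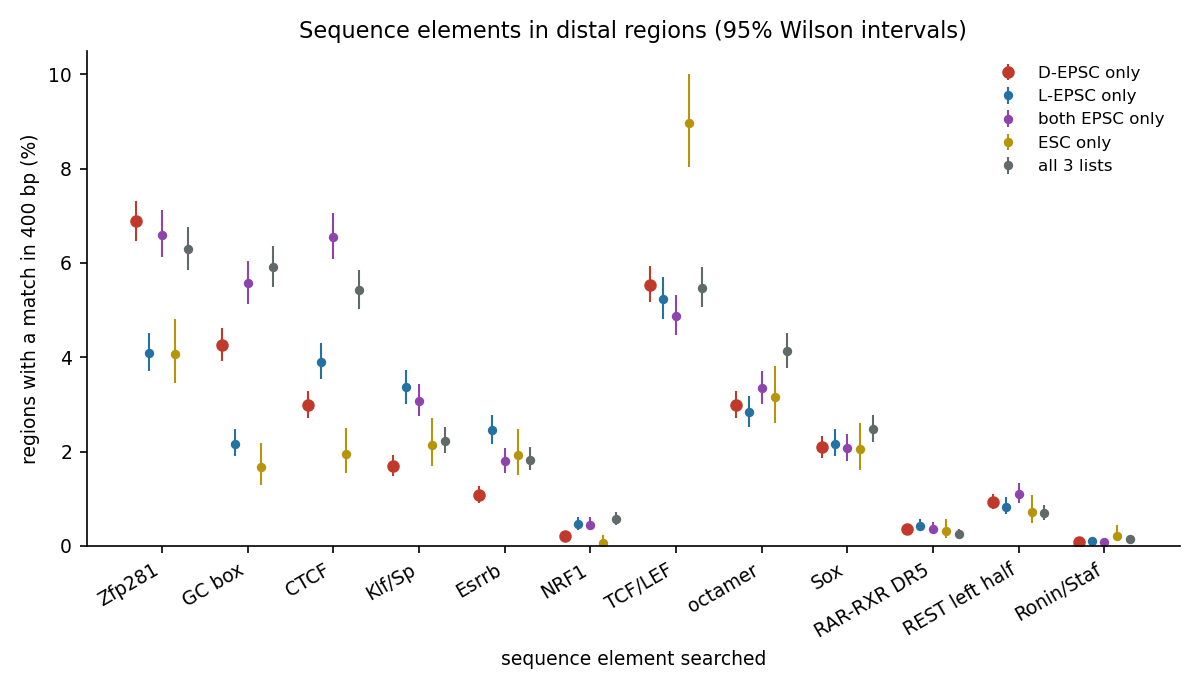
Share of distal regions with a match of 12 elements in windows of 400 bp, in percent on the y axis, for each class of region. Points are shares and bars 95% Wilson intervals, and the D-EPSC-only points for Zfp281 (6.88%) and the GC box (4.26%) lie above those of the L-EPSC-only class (4.10% and 2.17%), while those for Klf/Sp and Esrrb lie below.

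The shares of Zfp281 and CTCF elements also varied with the width of the members, which was divided into quartiles. Zfp281 matches were in 5.82% (5.08 to 6.67) of the narrowest quartile, of 117 to 145 bp, and in 8.02% (7.14 to 8.99) of the widest, of 348 to 1848 bp. CTCF went the other way, from 3.86% (3.26 to 4.57) to 1.29% (0.960 to 1.73). Esrrb was between 0.960% and 1.20% in every quartile, and the intervals of the narrowest and widest quartiles overlapped for Esrrb, Klf, AP-1 and the GC box. The window searched was 400 bp in each quartile, so a wider region did not mean a longer search.

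Members had a higher median GC content than other regions of a single list, with overlapping quartile ranges (47.8 to 55.2% in members, 46.2 to 53.0% in L-EPSC-only regions). The median GC content of the windows was 51.5% (order-statistic interval 51.2 to 51.5), with 49.8% in L-EPSC-only regions and 48.5% in ESC-only regions. Shared regions were close to the members, with 52.0% in both EPSC lists only and 51.8% in all 3 lists. CpG dinucleotides were sparse, with a median observed/expected ratio of 0.220 (0.217 to 0.223), against 0.187 (0.180 to 0.193) in ESC-only, 0.227 in L-EPSC-only, 0.263 in both EPSC lists only and 0.267 in all 3 lists. Windows that met a CpG-island-like threshold, at least 50% GC and a ratio of at least 0.6, were 3.60% of members, 2.61% of L-EPSC-only regions and 11.5% of regions in all 3 lists. The 100 words of 8 bases with the highest ratio of members to L-EPSC-only regions had a median of 7 G or C bases and 77 of them held a CpG, and the 100 lowest had a median of 2. Of the 100 highest, 74 were more frequent in both EPSC lists only, and 77 in all 3 lists, than in the members.

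Members were narrow. Their median width was 218 bp (215 to 221), with the quartiles at 145 and 347 bp and a range of 117 to 1848 bp. L-EPSC-only regions had a median of 210 bp and ESC-only regions of 232 bp. Regions in both EPSC lists only, at 375 bp, and in all 3 lists, at 566 bp, are unions of overlapping peaks and are wider in part by construction. The 2 commonest widths of the D-EPSC list, 119 and 117 bp, took up 1006 and 793 members, together 13.5%, against 2.56% of the other D-EPSC peaks. Only 9.94% of members were 500 bp or wider.

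**Figure D2:**
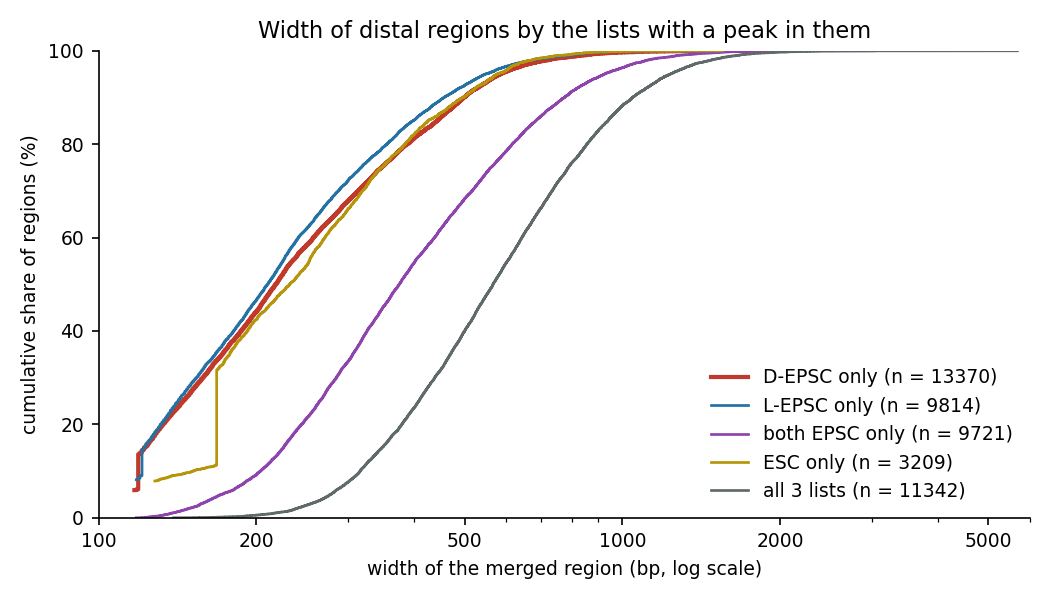
Cumulative share of distal regions, in percent, by width in bp on a log axis, with 1 line per class of region. The D-EPSC-only line (median 218 bp) runs with the lines of the L-EPSC-only and ESC-only classes and to the left of both shared classes, and its initial rise holds the 1799 members at the 2 commonest widths.

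Most members were far, in bases, from the peaks of the other lists and from the limit on distance to a start. How near a peak was to the threshold for calling it cannot be measured, since the lists hold no scores. The median gap from a member to the nearest ESC peak was 18090 bp and to the nearest L-EPSC peak 10516 bp. A peak of either other list was within 100 bp for 182 members (1.36%) and within 500 bp for 470 (3.52%). On the other side of the limit, 48 distal D-EPSC peaks shared only 1 to 10 bp with a peak of another list and 1105 shared 1 to 100 bp, and both were left out for it. For the distance limit, 53 members had a midpoint at most 100 bp beyond it, and 68 D-EPSC-only regions at most 100 bp inside it were left out.

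By annotation, 6385 members (47.8%; 46.9 to 48.6) were intergenic and 5770 (43.2%; 42.3 to 44.0) were in introns of protein-coding genes. Coding exons held 543 (4.06%), untranslated regions 270 (2.02%) and noncoding genes 402 (3.01%). L-EPSC-only regions were more often intronic, at 46.3% (45.3 to 47.3), and less often intergenic, at 44.7% (43.7 to 45.6). The median distance to the nearest coding start was 25748 bp, and 16.0% of members were over 100 kb away. In 15.6% (15.0 to 16.3) of members the window held a word of 24 bases that recurred in at least 10 windows, against 19.9% in L-EPSC-only, 27.2% in ESC-only and 17.4% in regions of all 3 lists. Regions in both EPSC lists only had 15.0% (14.3 to 15.7).

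The nearest coding gene of a member usually had a peak at its start in all states. This was so for 8131 members (60.8%; 60.0 to 61.6), and 1701 (12.7%) had one in both EPSC lists only. The shares with a peak in all states were of similar size for other distal regions, 64.1% for L-EPSC-only, 62.9% for ESC-only, 60.4% for both EPSC lists only and 60.6% for all 3 lists. For 589 members (4.41%; 4.07 to 4.77) the nearest gene's start held a D-EPSC peak only, against 3.34% (3.00 to 3.72) for L-EPSC-only regions, 4.07% (3.70 to 4.49) for regions in both EPSC lists only and 3.90% (3.56 to 4.27) for regions of all 3 lists. For 2645 members (19.8%) no list had a peak at that start. Over all 22208 protein-coding genes the share with a peak in all 3 lists was 50.6%, in both EPSC lists only 9.19%, in D-EPSCs only 3.34% and with none 34.9%.

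The widest member, of 1848 bp at chr8:4212939-4214786, had its midpoint in a coding exon of BC068157, 3449 bp from a start. The second, of 1780 bp at chr15:102785099-102786878, lay in an intron of Hoxc11, a homeobox gene of posterior patterning, and had a TCF/LEF word in its window. A member of 1646 bp at chr11:80947494-80949139 lay in an intron of Accn1 and held the Six4 match shown above.

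Intergenic members of 1504 bp (chr5:32518866-32520369) and 1430 bp (chr4:106527203-106528632) had Plb1 and Acot11, a phospholipase and an acyl-CoA thioesterase, as nearest genes. Introns held members of 1397 bp in Nmnat2 (chr1:154820244-154821640), an enzyme of NAD synthesis in axons, and of 1370 bp in Col18a1 (chr10:76627306-76628675), a basement membrane collagen. The Col18a1 member had an L-EPSC peak 486 bp away and a repeated word in its window. A member of 1368 bp lay in an intron of Npas3 (chr12:54353717-54355084), a neuronal bHLH-PAS factor. It had the highest GC content of the 10, at 64.5%, with a CpG ratio of 0.882 and GC box, Tfap2 and E-box words, and its nearest ESC peak was 219647 bp and its nearest L-EPSC peak 3845 bp away. The last of the 10 were intergenic members of 1366 bp (chr1:59514970-59516335), 23338 bp upstream of the Wnt receptor gene Fzd7, and of 1311 bp (chr4:104963609-104964919), 134312 bp downstream of the start of Ppap2b, a lipid phosphatase gene.

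When members within 50 kb of the next were linked, 60.7% (59.9 to 61.5) were in runs of 2 or more, against 54.2% (53.2 to 55.2) of L-EPSC-only regions, 57.4% of regions in both EPSC lists only and 20.0% of ESC-only regions. Larger classes give more runs at a fixed distance, so these shares are not comparable in density. There were 2823 runs, of which 291 had 5 members or more and 17 had 10 or more, and 5252 members were alone.

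The largest run held 16 members over 308 kb at chr5:145394583-145702192. Its members were nearest to Tmem130 (6), Trrap (6), Smurf1 (3) and Nptx2 (1). Trrap is a scaffold of histone acetyltransferase complexes, and Smurf1 is a ubiquitin ligase that limits BMP signalling. The 6 members nearest to Trrap were in or beside Trrap, at widths of 194 to 689 bp, and the widest of the run, 823 bp, was in an intron of Smurf1. The run spanned 33 regions in all, of which 7 were L-EPSC only, 4 in both EPSC lists only and 6 with an ESC peak.

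The second run, of 14 members over 223 kb at chr15:102785099-103007745, began in the Hoxc cluster, whose genes pattern the trunk and limbs, and extended past it. Single members lay nearest to Hoxc11, Hoxc10, Hoxc6 and Hoxc5, 5 to Hoxc4 and 5 to Smug1, a uracil-DNA glycosylase. Of those nearest to Hoxc4, the members at 20951, 35060, 43462 and 51690 bp from its start were intergenic. The members of the run ranged from 123 bp to the 1780 bp member in Hoxc11. A run of 11 members, of 117 to 330 bp over 129 kb, began in the Hoxb cluster and was named here after its values were seen. It had 4 members nearest to Hoxb1, 3 to Hoxb3 and 1 each to Hoxb2, Hoxb6, Hoxb7 and Hoxb8. Those at 31767, 34329 and 42210 bp from the Hoxb1 start were intergenic and lay past the cluster. Of the 20 regions along the run, at any distance from a start, 1 had an ESC peak. Among all 50641 distal regions, 11342 were of all 3 lists and 3209 of ESCs only. A further 1344 were shared by ESCs and D-EPSCs only and 1841 by ESCs and L-EPSCs only.

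Runs of 12 members occurred at 3 places. The run at chr11:98690460-99024814 had 2 members nearest to Rara, a retinoic acid receptor, 3 to Rapgefl1, 2 to Ccr7 and 1 each to Cdc6 and Top2a, which act in DNA replication and in untangling DNA, and to Wipf2, Igfbp4 and Tns4. It was also the most populated by other classes, with 43 regions of which 12 were in both EPSC lists only and 9 in L-EPSCs only. The run at chr17:46579836-46776768 had 3 members nearest to Ptk7, a Wnt co-receptor of planar cell polarity, and 2 nearest to Srf, the serum response factor. The run at chr7:38815603-39007260 had 4 members nearest to Ccne1, the cyclin that drives entry into S phase. Of its 21 regions none was L-EPSC only, a class that held 9814 of all 50641 distal regions.

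Members were nearest to 7437 coding genes, of which 4421 had a single member and 27 had 10 or more. Camta1, a calmodulin-binding transcription activator, had 19, of which 18 were intronic, with widths of 117 to 1066 bp, and they were 51.4% of the 37 distal regions nearest to it. Zfp608, a zinc-finger gene, also had 19, which were 86.4% of 22, with 2 regions of all 3 lists and 1 of L-EPSCs only. No distal region nearest to either gene had an ESC peak only, and such regions were 3209 of all 50641 distal regions.

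Auts2, a neurodevelopmental gene, had 18 members of 34 distal regions (52.9%). Pard3, a cell polarity gene, had 16 of 47 (34.0%), and Zfhx3, a zinc-finger homeobox factor, 15 of 36 (41.7%). Members were 26.4% of all distal regions. Pard3 had nearly as many L-EPSC-only regions, 14, whereas Zfhx3 had 2. Tbc1d1, a Rab GTPase-activating protein, had 14 members of 29 distal regions and Bcor, a corepressor of a Polycomb complex, had 13 of 24. Rbfox3, a neuronal splicing factor, had 12 members, of 16 distal regions. The gene 3100002H09Rik had 12 of 18, and Cdh13, an atypical cadherin, had 11 of 30.

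Across the region around Zfp281, the 10 members were spread from 59.7 kb upstream to 157 kb downstream of its start. Their widths were 117 to 426 bp. The other distal and start regions nearest to Zfp281 were 9 of all 3 lists, including the one at the start itself, 7 of both EPSC lists only and 3 of L-EPSCs only, and none had a peak in ESCs only. Within 50 kb of the start there were 4 members and no L-EPSC-only region.

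**Figure D3:**
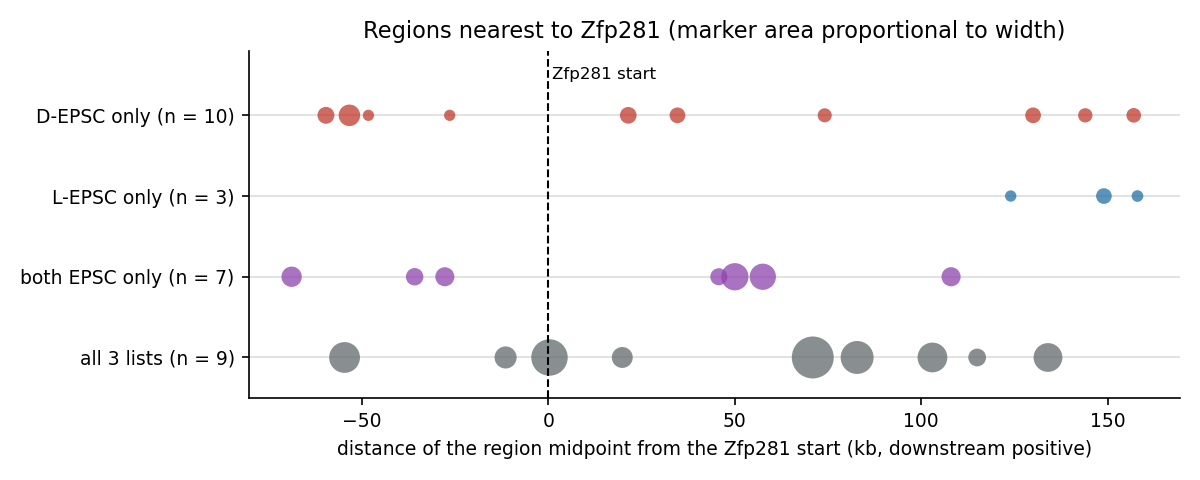
Midpoints of the merged regions nearest to Zfp281, by distance in kb from its start on the x axis and by class on the y axis, with marker area proportional to width. The 10 D-EPSC-only regions lie on both sides of the start, from -59.7 to 157 kb, while the 3 L-EPSC-only regions lie beyond 124 kb.

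To describe genes of the pathways that the study and its media concern, members within 50 kb of any start of a gene were counted for 13 gene lists. Of all 22208 coding genes, 50.9% had 1 member or more within that distance and 9.30% had 3 or more. The corresponding share of genes was 41.2% for L-EPSC-only regions, 44.7% for regions in both EPSC lists only and 48.8% for distal regions of all 3 lists. Lists are small and genes that neighbour each other share members, so the intervals are wide and the counts are not independent.

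DNA methylation genes had members in 10 of 11 cases (90.9%; 62.3 to 98.4), the highest share of the 13 lists at 50 kb. The rank did not hold at other settings, since 4 lists had higher shares within 20 kb, where this one had 54.5%, and 3 did within 100 kb, where it had 90.9%. With only the widest peaks kept it had 54.5%, below 4 lists. L-EPSC-only regions were near 6 of the genes, and regions in both EPSC lists only and regions of all 3 lists near 9 each. Dnmt3b, a de novo methyltransferase, and Dnmt1, the maintenance methyltransferase, had 5 members each. Those of Dnmt3b were 117, 131, 178, 150 and 645 bp wide, and those at 2254 and 19345 bp downstream were intronic. Dnmt3a had 4 members of 292 to 332 bp, and Tet3, which oxidises methylcytosine, had 3. Mettl4 had none.

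Retinoic acid genes had members in 14 of 16 cases (87.5%; 64.0 to 96.5), against 10 for L-EPSC-only regions and 11 for regions in both EPSC lists only. Rara had 5 members of 119 to 312 bp, the nearest in an intron 1951 bp downstream of a start. Stra6, the retinol uptake receptor, and Crabp1, a cytoplasmic retinoic acid carrier, had 4 each, of 203 to 517 bp and 119 to 499 bp. Rarg, a further receptor, had 3, of 139 to 550 bp. Of the synthesis enzymes, Aldh1a3 had 1 of 348 bp, and Aldh1a1 and Aldh1a2 had none.

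Wnt genes had members in 23 of 27 cases (85.2%; 67.5 to 94.1), and 11 of them had 3 or more. L-EPSC-only regions were near 18 and regions in both EPSC lists only near 17. Wnt5b, a ligand of the noncanonical pathway, had 6 members of 117 to 246 bp and no L-EPSC-only region. The receptor Fzd2 had 5 members, and Lef1, a nuclear effector, and Wnt11, a ligand, had 4 each. Lef1 had neither an L-EPSC-only region nor a region of both EPSC lists only within 50 kb.

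Trophoblast regulators had members in 12 of 14 cases (85.7%; 60.1 to 96.0), the same number as for L-EPSC-only regions. Tcfap2a had 4, Tcfap2c 3, Eomes 3 and Tead4 2. The widest at Tcfap2c, a factor of the trophoblast and of germ cells, was 734 bp and lay 1974 bp upstream of the start. Primitive endoderm regulators had members in 5 of 10 cases, close to the background and against 6 for L-EPSC-only regions, with 2 each at Dab2 and Gata4 and 1 each at Hnf4a and Gata6.

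Core and naive pluripotency genes had members in 13 of 17 cases (76.5%; 52.7 to 90.4), and L-EPSC-only regions were near 10 and regions in both EPSC lists only near 13. The annotation holds another listed gene, Tfcp2l1, under its older symbol Tcfcp2l1, with 2 members and 2 L-EPSC-only regions, and counting it gave 14 of 18 (77.8%; 54.8 to 91.0). Tbx3 had 4 members of 306 to 859 bp, the widest being 5341 bp downstream of its start. Pou5f1 had 4 of 195 to 330 bp, at 17391 to 48955 bp from its start, and 6 L-EPSC-only regions. Klf2 and Utf1 had 3 each. Klf4, Klf5, Nr5a2 and Lin28a had none.

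Formative and primed genes had members in 9 of 14 cases (64.3%; 38.8 to 83.7), against 7 for L-EPSC-only regions and 10 for regions in both EPSC lists only, with 5 at Dnmt3b, 4 at Lef1, 4 at Pou3f1 and 3 at Eomes. The 4 at Pou3f1, a POU factor of the epiblast, lay 4545 to 24216 bp from the start. Genes of the two-cell-like state had members in 4 of the 8 that matched the annotation, of 12 listed, as many as for L-EPSC-only regions, with 1 each at Zscan4d, Zfp352, Dppa2 and Dppa4, and the 672 bp member at Zscan4d was the widest of them. Dppa2 and Dppa4 shared their member. With 2 more genes matched by older symbols the count was 5 of 10.

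FGF and MAPK genes had members in 16 of 25 cases (64.0%; 44.5 to 79.8), against 15 for L-EPSC-only regions and 22 for regions in both EPSC lists only. There were 5 members each at the inhibitors Spry4 and Spry1 and 4 each at Fgf1 and Fgfr4. Nodal, BMP and TGF-beta genes had members in 17 of 25 cases (68.0%; 48.4 to 82.8), the same number as for L-EPSC-only regions and 1 fewer than for regions in both EPSC lists only, with 3 each at the receptor Bmpr1a, the mediator Smad5, the inhibitor Lefty1 and Nodal itself.

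The list of Zfp281 partners and motif factors had members in 7 of 10 cases (70.0%; 39.7 to 89.2). The count was 4 for L-EPSC-only regions, 6 for regions in both EPSC lists only and 7 for regions of all 3 lists. There were 4 members at Zfp281, 3 at Nrf1 and 2 at Six4. Genes of histamine and muscarinic receptors had members in 5 of 9 cases, against 6 for L-EPSC-only regions, with 2 members at Hrh2 and 1 each at Hrh4, Chrm3, Chrm1 and Chrm4. Hrh1, which encodes the main receptor blocked by dimethindene, had no member and 2 L-EPSC-only regions, and Chrm2 had neither. Neuronal genes with known REST sites had the lowest share at 50 kb, in 8 of 20 cases (40.0%; 21.9 to 61.3), as many as for L-EPSC-only regions, including a member of 1228 bp upstream of Nefl, a neurofilament gene. Chga, Gad1 and Nefm had 2 members each.

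**Figure D4:**
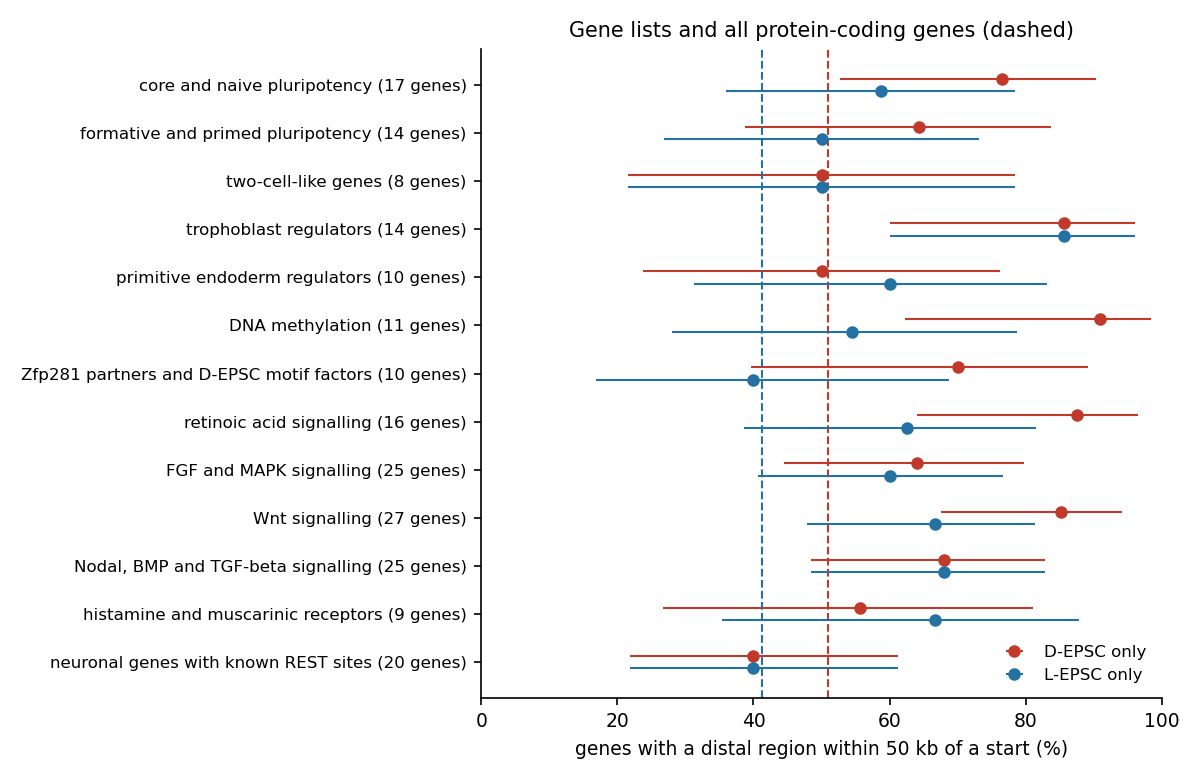
Share of genes, in percent on the x axis, with a D-EPSC-only or an L-EPSC-only distal region within 50 kb of a start, for 13 gene lists on the y axis. Bars are 95% Wilson intervals and dashed lines the shares over all coding genes (50.9% and 41.2%), and the D-EPSC-only points range from 40.0% (neuronal genes with REST sites) to 90.9% (DNA methylation).

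Members were found on all chromosomes analysed. Chromosome 8 was the most dense, with 9.02 members per Mb and 8.89% of all members (8.41 to 9.38), and chromosome 11 followed with 7.66 per Mb. L-EPSC-only regions also had a high share on chromosome 8, 9.80%, and regions of all 3 lists had 8.16%. Chromosome X had 0.960 per Mb and 1.20% of members (1.03 to 1.40). It held 0.632% of L-EPSC-only regions, 0.988% of regions in both EPSC lists only, 1.65% of ESC-only regions and 1.41% of regions of all 3 lists. Chromosomes 5 and 7 held larger shares of members, 7.29% (6.86 to 7.75) and 6.52% (6.12 to 6.95), than of L-EPSC-only regions, 6.53% and 4.88%. For chromosome 7 the share of regions of all 3 lists, 6.34%, was inside the members' interval, and regions in both EPSC lists only had 6.11%. For chromosome 5 these classes had 5.60% and 6.16%. The members were 29.9% of the distal regions of chromosome 5, the highest value, and 23.7% of those of chromosomes 3 and 6, the lowest.

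**Figure D5:**
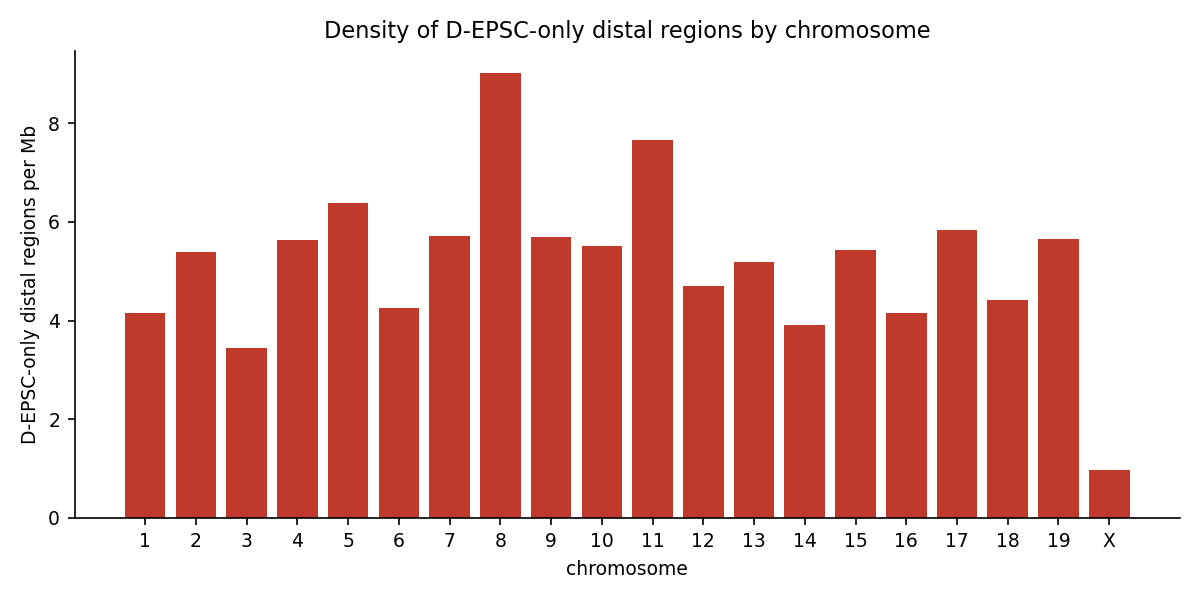
Number of D-EPSC-only distal regions per Mb, on the y axis, for each chromosome on the x axis, as bars from 0. Chromosome 8 stands highest at 9.02 per Mb and chromosome X lowest at 0.960 per Mb.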

How the data were processed

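Chromatin accessibility was assayed by ATAC-seq in ESCs, D-EPSCs and L-EPSCs, 2 technical replicates each. The authors aligned paired reads to mm9 with bowtie2 2.3.5, filtered alignments with samtools 1.10 and ran MACS with its defaults. The submitters' notes also name FastQC, Trim Galore and HOMER. At these defaults MACS drops repeated reads at a position and makes no transposase offset, which can move edges by a few bases. How replicates were combined and whether blacklisted regions were removed is not given in the sources used here. Uneven depth would change how many weak peaks are listed. The values deposited by the authors are starts and ends of peaks in 3 lists of 4 columns, without scores, so depth is unknown.

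Peaks on chromosomes 1 to 19 and X were merged where they shared at least 1 bp. Starts came from GENCODE M1 on NCBIM37. The members and gene lists were chosen with earlier results of these data known. Named were the 10 widest members, the runs with most members (ties included), the 10 genes with most members nearest, up to 4 genes per list with most members within 50 kb (ties by width) and, for 6 factors, the widest member with a match. Chromosome 18 members were left out of the widest members and the sequences. A gene and a sequence that the rule or the text would have named are not reported here. Listed symbols were matched to the annotation as written, and, as an alternative chosen after the data had been seen, through RefSeq synonyms (GRCm38.p6). Genes outside this rule that are named for having no member, or few, were chosen after their values were seen. Shares have Wilson intervals, medians order-statistic intervals, and differences of shares Newcombe intervals, none adjusted for the 23 elements. Intervals of GC-weighted differences are the unweighted intervals moved to the weighted value, without the error that weighting adds. Alternatives are given in the closing section. The tools were Python 3.11.15, pandas 2.3.3, numpy 2.4.6, pysam 0.24.0 and scipy 1.17.1, and the steps were tested on simulated data and against bedtools 2.31.1.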

Additional observations from a re-analysis of the deposited data

Results flagged for a closer look

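The D-EPSC list held 2 peaks on the mitochondrial genome, outside the chromosomes used for the distal regions. Both were overlapped by peaks of another list, so neither was found in D-EPSCs only.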

How the results depend on the processing

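No paired analysis was possible because the peaks of both replicates are pooled in 1 list per state, which also prevents leaving a replicate out. The 13370 members became 5694 with the widest 28965 peaks of each list, which removes D-EPSC peaks by construction, and stayed within 1.5 times under the other 4 definitions tried (12680 to 19016, the latter with a reciprocal overlap of 50%). The median width of 218 bp moved to 234 bp with a reciprocal overlap of 50% and to 241 bp without the 2 commonest widths. The intergenic share of 47.8% moved to 48.9% with a distance of 2.5 kb from starts. GC content of 51.5% moved to 52.5% in windows of 200 bp, 52.8% over whole regions and 52.0% with the widest peaks, and the CpG ratio of 0.220 to 0.214, 0.213 and 0.241.

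Members in runs, 60.7% at 50 kb, were 35.0% at 20 kb and 79.8% at 100 kb. Genes with a member, 50.9% within 50 kb, were 27.6% within 20 kb, 69.1% within 100 kb and 29.4% with the widest peaks. These follow from the distances and list lengths. Of the 23 elements, 12 differed from L-EPSC-only regions by intervals excluding 0, and the same 12 did so in windows of 200 bp and at 2.5 kb. Some differences were smaller in windows of 200 bp. Zfp281 went from 2.78 to 1.98 points, the GC box from 2.09 to 1.26 and Esrrb from -1.38 to -0.74. Over whole regions 12 did, with Six4 (0.95 points, 0.09 to 1.80) in place of YY1 (-0.16 points, -0.36 to 0.01). With GC weighting, chosen after the data had been seen, the number was again 12, though Tfap2 and Zic were replaced by TCF/LEF and the octamer. That number rests on the moved intervals, which leave out the error of the weighting. With the widest peaks 8 did, among them Zfp281, the GC box, Esrrb and Klf. The differences for NRF1, TEAD, CTCF, Zic and YY1 then had intervals spanning 0, and the Sox word was lower in members (-0.67 points, -1.24 to -0.11). Except where the construction is named, the cause was not tested. The lists hold no depth, so the presence of weak peaks in 1 state only cannot be judged.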
